A study of Rattus norvegicus with 16 samples.

Results

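The muscarinic acetylcholine receptors Chrm1, Chrm2, Chrm3, Chrm4 and Chrm5 were measured in the gustatory cortex of rats 1 or 3 h after drinking. They were selected by symbol from the annotation of the array, and earlier results of these data were known when they were chosen. Each was represented by 1 probe set. The receptors were 5 of the 14497 genes with a probe set of their own. Their probe sets were 5 of 15209 such probe sets among the 28826 deposited. Of the 5 receptors, Chrm4 was the member that differed between the times: its signal was 1.33-fold higher at 1 h than at 3 h over both tastes (95% interval 1.24 to 1.42). Chrm2 lay on the opposite side, with lower values at 1 h, and did not pass the adjusted threshold. Chrm1, Chrm3 and Chrm5 showed no difference that passed it, and no receptor passed it between the tastes.

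Muscarinic receptors are G protein coupled receptors through which acetylcholine released from basal forebrain axons acts on cortical neurons. The odd-numbered members (M1, M3 and M5) couple to Gq, phospholipase C and calcium release, and close M-type potassium channels. The even-numbered members (M2 and M4) couple to Gi and Go, inhibit adenylyl cyclase and open inwardly rectifying potassium channels, and both can act as autoreceptors that limit acetylcholine release. Cholinergic signalling in the gustatory cortex is known for its part in the learning of unfamiliar tastes.

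The 16 arrays came from as many male Wistar Hola rats, labelled as 2 months old, which formed 4 groups of 4. The methods of the study give an age range that starts above the labelled age. All rats were water restricted and trained to take their daily water from pipettes. On the last day the drink was either water again, as a familiar taste, or 0.1% saccharin, which they had not met before, and the gustatory cortex was taken 1 h or 3 h after the drinking session. Every group had therefore drunk, and the arrays held no group without a drink. The rats were killed at different intervals after drinking, and the numbers in the labels followed the interval (C365 to C372 at 3 h, C373 to C380 at 1 h). What these numbers record is not given. The interval therefore cannot be told apart from anything else that follows them, or from the hour of killing within the light phase.

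Array medians ran from 5.08 to 5.16 on the log2 scale, the correlation between 2 arrays from 0.994 to 0.997, and 0 of 120 pairs of arrays held identical values. Slc17a7, the vesicular glutamate transporter of cortical excitatory neurons, had group means of 10.88 to 10.92, and 7 of 13 listed markers of these neurons had a probe set of their own. These markers do not separate the gustatory cortex from neighbouring cortex. The values are log2 probe set signals with no detection call and no length scaling, so receptors were not ranked against each other by level. In bulk tissue, fewer cells of a type and less RNA per cell cannot be told apart.

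Chrm4 encodes the M4 receptor, the inhibitory muscarinic receptor that is most abundant in striatum and also present in cortex. At 1 h after saccharin the 4 arrays gave log2 signals of 7.89 (C375), 7.86 (C377), 7.95 (C379) and 8.03 (C380). At 3 h after saccharin they gave 7.39 (C366), 7.53 (C368), 7.46 (C370) and 7.57 (C372). Every 1 h array was above every 3 h array, with a gap between the groups that was wider than the SD within either (0.0777 at 1 h and 0.0797 at 3 h, n = 4 each). The mean was 7.93 at 1 h and 7.49 at 3 h, a log2 change of 0.447 with an SE of 0.0642 and an adjusted p of 0.00168 (limma, Benjamini-Hochberg over all 15209 probe sets), or 1.36-fold (95% interval 1.24 to 1.50).

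After water the same direction was seen. Chrm4 log2 signals at 1 h were 7.82 (C373), 8.09 (C374), 7.96 (C376) and 7.99 (C378), and at 3 h they were 7.71 (C365), 7.55 (C367), 7.60 (C369) and 7.50 (C371). The groups again did not overlap, although the lowest 1 h array, C373, and the highest 3 h array, C365, lay close together. Means were 7.97 ± 0.115 and 7.59 ± 0.0906 (SD, n = 4 each), a log2 change of 0.373 with an SE of 0.0642 and an adjusted p of 0.0181 in limma, or 1.30-fold (95% interval 1.18 to 1.42).

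When the tastes were pooled, the 1 h array was the higher in all 64 pairings of a 1 h with a 3 h array, and the log2 change was 0.410 (SE 0.0454, 95% interval 0.315 to 0.506, adjusted p = 5.39e-05 in limma). Two-sided exact permutation tests over arrays gave 0.0286 within each taste, the smallest p that 4 against 4 arrays allow, and 0.000408 when times were exchanged within each taste, again the smallest possible. These are among 25 such tests over the 5 receptors and are not adjusted for that number. The group means ran in the order water 1 h, saccharin 1 h, water 3 h and saccharin 3 h. Within each time the neighbours in that order overlapped, whereas the lowest array of the 1 h saccharin group stood above the highest of the 3 h water group.

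**Figure D1:**
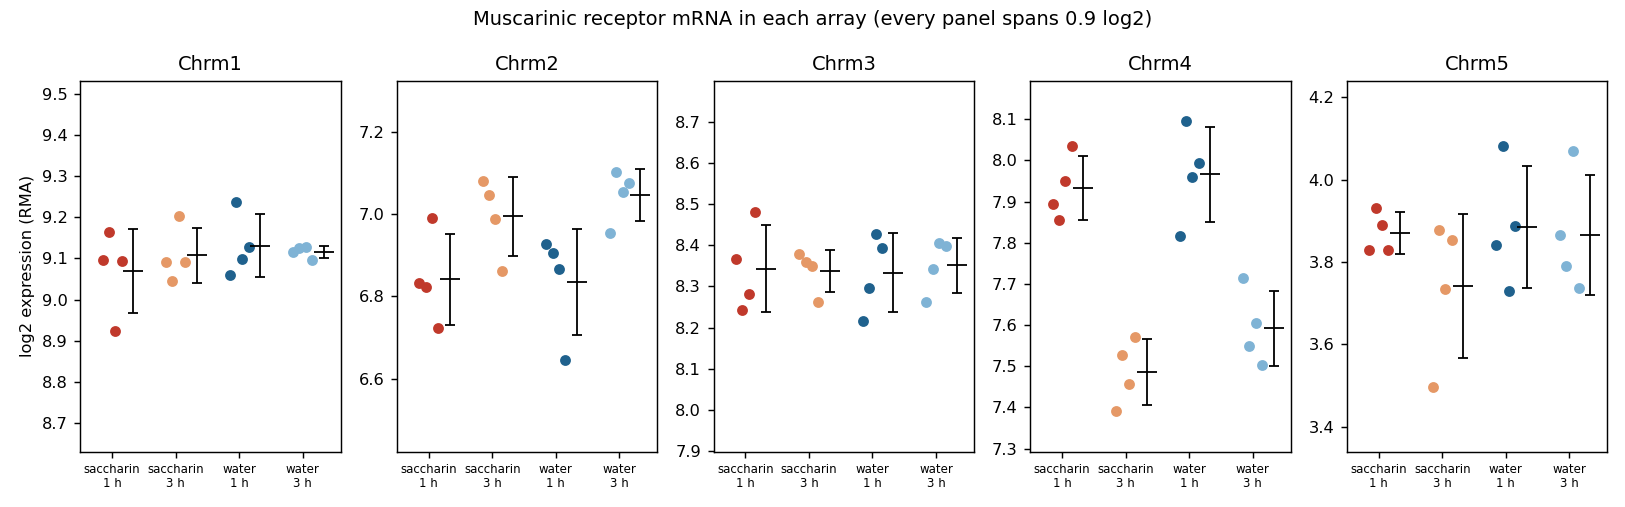
Log2 probe set signal of each receptor (vertical axis, own scale per panel) in the 4 groups (horizontal axis); points are single arrays and bars are group means with SD (n = 4). Chrm4 runs from 7.86 to 8.03 at 1 h after saccharin and from 7.39 to 7.57 at 3 h, without overlap, whereas the Chrm1 and Chrm3 groups lie on top of each other.

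Among the receptors, 1 of 5 passed the adjusted threshold of 0.05 for 1 h against 3 h in each taste and over both. The background was 0.348% of all probe sets tested after saccharin (53 probe sets), 0.125% after water (19) and 1.01% over both tastes (153). Chrm4 stood at rank 17, 15 and 14 by p among the 15209 probe sets in these comparisons. The group means of the saccharin and water comparisons come from different arrays, but 1 fit of all arrays gave both the same residual variance. The SE of the Chrm4 change was therefore 0.0642 in both, and these calls are not independent of each other. Fitted with only the arrays of the comparison, Chrm4 had an adjusted p of 0.00443 after saccharin and 0.147 after water in limma. The comparison over both tastes uses the arrays of both. Chrm4 was also the receptor that passed the cut-off in the methods of the study. That cut-off was an unadjusted p of at most 0.05 with a minimum fold change. It was passed by 0.750% of probe sets after saccharin, 0.572% after water and 0.480% over both tastes. Groups of arrays without overlap were found for 4.78% of probe sets after saccharin, 4.35% after water and 0.434% over both tastes.

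The call for water was less stable than that for saccharin when arrays were left out. With 1 array left out at a time, the log2 change after saccharin stayed between 0.413 and 0.476 and the adjusted p between 9.69e-04 and 0.00983. After water the change stayed between 0.330 and 0.423, and the adjusted p rose above 0.05 without C367 (0.0951), C369 (0.0659), C371 (0.0647), C374 (0.0816), C376 (0.0744) or C378 (0.0595). Without C373 or C365, the pair that lay closest together, the adjusted p after water was lower than with all arrays. Over both tastes it stayed between 2.41e-05 and 2.36e-04.

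**Figure D2:**
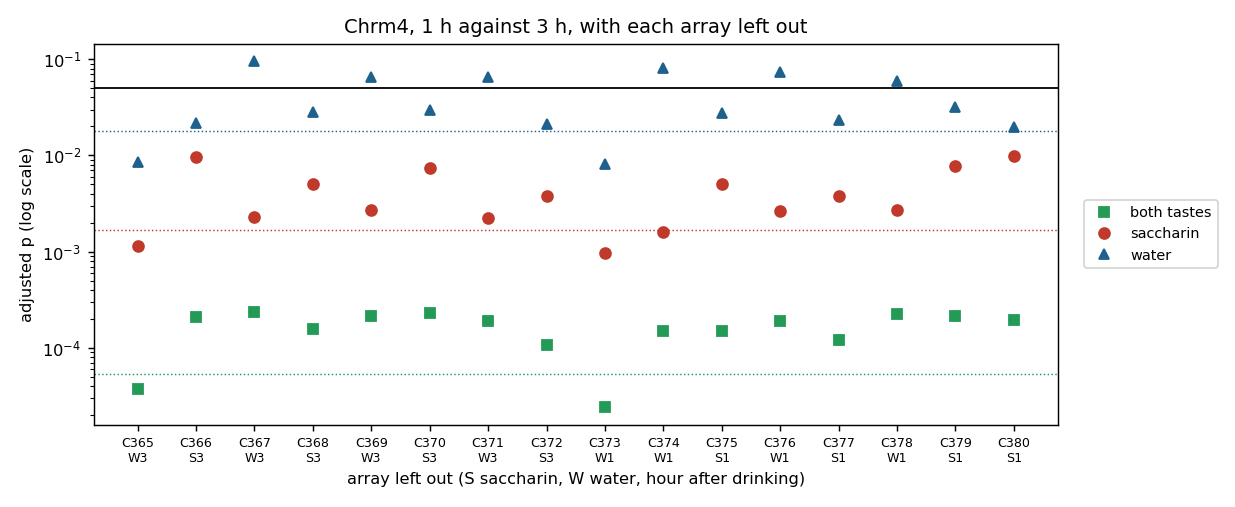
Adjusted p (vertical axis, log scale) for Chrm4 at 1 h against 3 h when the array on the horizontal axis is left out; squares are both tastes, circles saccharin and triangles water, dotted lines the values with all 16 arrays and the solid line 0.05. The water triangles lie above the solid line for 6 of the 16 arrays, whereas circles and squares lie below it for every array.

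Where the probes of the Chrm4 probe set lie is not given in the files used here, and the annotated span of Mdk overlaps that of Chrm4, so whether they share signal was not tested. The log2 change of Mdk over both tastes was 0.04 (adjusted p = 0.895).

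The promoters of the even-numbered receptors are shown because Chrm4 differed between the times and Chrm2, its partner in coupling, did not pass the test. The sequences are RefSeq reference sequence (GRCr8, the plus strand for both genes), 250 bases before and 50 from the annotated start, at chr3:98348830-98349129 for Chrm4 and chr4:65982200-65982499 for Chrm2. Capitals mark GC boxes, GGGCGG or its reverse complement CCGCCC, the binding motif of Sp family factors.
Chrm4 promoter: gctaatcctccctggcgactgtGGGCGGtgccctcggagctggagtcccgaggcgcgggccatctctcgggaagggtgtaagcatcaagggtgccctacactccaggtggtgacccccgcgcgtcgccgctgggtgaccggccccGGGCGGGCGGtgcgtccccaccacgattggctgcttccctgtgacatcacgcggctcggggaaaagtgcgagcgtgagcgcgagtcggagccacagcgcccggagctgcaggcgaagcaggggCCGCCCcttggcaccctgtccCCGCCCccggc
Chrm2 promoter: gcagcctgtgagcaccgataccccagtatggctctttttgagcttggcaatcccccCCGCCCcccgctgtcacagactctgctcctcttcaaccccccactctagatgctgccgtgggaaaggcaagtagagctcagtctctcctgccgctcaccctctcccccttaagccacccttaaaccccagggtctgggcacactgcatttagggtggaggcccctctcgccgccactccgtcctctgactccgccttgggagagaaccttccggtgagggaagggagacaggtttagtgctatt
The Chrm4 window was 72.0% G and C, above 94.1% of the 33465 promoters in the reference table, with 32 CpG dinucleotides. It held 5 GC boxes, 2 of them overlapping, starting at -228, -105, -101, 19 and 40 from the start site. A GC box was present in 33.1% of all promoters and 5 or more in 2.34%. The Chrm2 window was 60.3% G and C, above 74.5% of all promoters, with 1 GC box at -194. Its 10 CpG dinucleotides were more than in 58.5% of them. Chrm3, not called between the times, had 28 CpG dinucleotides, more than in 87.4% of all promoters. Its G and C share was above 82.1% of them. For Chrm1, also not called, these percentages were 48.6% for CpG and 68.7% for G and C. Whether base composition goes with the change over time was not tested. Both strands were also searched for motifs of activity-regulated factors. The cAMP response element TGACGTCA (1.83% of all promoters), its core TGACG (21.2%), the AP-1 site TGANTCA (7.33%), the Egr site GCGNGGGCG (4.98%), the CArG box (1.64%) and the E-box CACGTG (6.42%) had no match in the Chrm4 or the Chrm2 window. Of the other receptors, Chrm1 held 1 TGACG, and Chrm3 held 1 TGACG, 1 Egr site that overlaps a GC box, and 2 GC boxes. A match or its absence describes these letters in this window.

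Chrm2 encodes the M2 receptor, an autoreceptor on cholinergic terminals that is also found on cortical interneurons. After saccharin its log2 signals were 6.83 (C375), 6.82 (C377), 6.99 (C379) and 6.72 (C380) at 1 h against 7.08 (C366), 7.05 (C368), 6.99 (C370) and 6.86 (C372) at 3 h. The groups overlapped through C379, which lay level with C370 and above C372. After water the signals were 6.93 (C373), 6.90 (C374), 6.87 (C376) and 6.64 (C378) at 1 h against 6.95 (C365), 7.10 (C367), 7.05 (C369) and 7.08 (C371) at 3 h, without overlap. Such a lack of overlap after water was found for 4.35% of all probe sets.

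The log2 change of Chrm2 from 3 h to 1 h was -0.152 after saccharin (95% interval -0.299 to -0.0056, adjusted p = 0.598) and -0.211 after water (95% interval -0.357 to -0.064, adjusted p = 0.456). Over both tastes it was -0.182 (SE 0.0492, adjusted p = 0.0997 in limma), a level 1.13-fold lower at 1 h, at rank 265 of the 15209 probe sets. The exact permutation p was 0.0857 after saccharin, 0.0286 after water (the smallest that 4 against 4 arrays allow) and 0.00286 over both tastes. The 1 h array was the higher in 6 of 64 pairings. Chrm2 passed the adjusted threshold in none of the comparisons. With the mean signal of striatal neuron markers as a covariate, its change was -0.080 after saccharin (adjusted p = 0.945), -0.151 after water (adjusted p = 0.758) and -0.116 over both tastes (adjusted p = 0.693).

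The difference between the Chrm4 and Chrm2 log2 signals within an array was taken after the opposite signs of their changes had been seen, and is given as a description. It averaged 1.09 ± 0.153 at 1 h and 0.492 ± 0.165 at 3 h after saccharin (SD, n = 4 each). After water it averaged 1.13 ± 0.192 at 1 h and 0.546 ± 0.152 at 3 h (SD, n = 4 each). It was larger at 1 h than at 3 h by 0.599 after saccharin and 0.584 after water, most of which was the change of Chrm4. Across the 16 arrays the Pearson correlation of Chrm4 with Chrm2 was -0.736, and -0.45 once each group's mean had been subtracted. All values of an array share 1 RNA sample and 1 normalization.

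Chrm1 encodes the M1 receptor, the principal Gq coupled muscarinic receptor of cortical pyramidal neurons. Its 16 log2 signals ran from 8.92 (C379, 1 h after saccharin) to 9.24 (C374, 1 h after water). Group means were 9.07 ± 0.102 at 1 h and 9.11 ± 0.0669 at 3 h after saccharin, and 9.13 ± 0.0766 at 1 h and 9.12 ± 0.0142 at 3 h after water (SD, n = 4 each). The 4 groups overlapped, and the range of their means, 0.0615, was smaller than the within-group SD of 0.0723. The change from 3 h to 1 h was -0.04 after saccharin (95% interval -0.154 to 0.077, adjusted p = 0.936) and 0.01 after water (95% interval -0.101 to 0.130, adjusted p = 0.978).

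Chrm3 encodes the M3 receptor, best known for smooth muscle contraction and gland secretion and also present in cortex. Its log2 signals ran from 8.22 (C373) to 8.48 (C380), both at 1 h, so the extremes of the series fell within 1 time point. The 4 group means lay between 8.33 and 8.35, a range of 0.0184 against a within-group SD of 0.0828. The change from 3 h to 1 h was 0.01 after saccharin (95% interval -0.120 to 0.131) and -0.02 after water (95% interval -0.144 to 0.107). Both intervals leave out changes of the size fitted for Chrm4, as do the intervals for Chrm1.

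Chrm5 encodes the M5 receptor, which is best known from midbrain dopamine neurons. Between 25.4% and 35.9% of the probe sets of an array lay below its lowest and highest signal. The signals ran from 3.50 (C366, 3 h after saccharin) to 4.08 (C374, 1 h after water). Group means were 3.87 ± 0.0509 at 1 h and 3.74 ± 0.175 at 3 h after saccharin and 3.88 ± 0.148 at 1 h and 3.86 ± 0.146 at 3 h after water (SD, n = 4 each). All groups overlapped. The change from 3 h to 1 h was 0.128 after saccharin (95% interval -0.056 to 0.313, adjusted p = 0.776) and 0.02 after water (95% interval -0.165 to 0.205, adjusted p = 0.982). Without C366 the change after saccharin was 0.047. Its within-group SD of 0.138 was the largest of the 5 receptors, and its intervals are the widest.

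The taste itself was compared at each time. No receptor passed the adjusted threshold between saccharin and water, 0 of 5 at 1 h and 0 of 5 at 3 h. Limma called 0% of all probe sets at either time (465 and 513 probe sets had an unadjusted p under 0.05, 3.06% and 3.37%). Missing the threshold does not show that levels were alike after both tastes. Of the 5 differences of saccharin minus water, 2 were positive at 1 h and 0 at 3 h. For Chrm4 the difference of saccharin minus water was -0.03 at 1 h (95% interval -0.167 to 0.103, exact permutation p = 0.657) and -0.11 at 3 h (95% interval -0.241 to 0.029, exact permutation p = 0.143). The 3 h saccharin arrays were higher than the 3 h water arrays in 3 of 16 pairings. For Chrm2 the differences were 0.01 and -0.05, for Chrm1 -0.06 and -0.01, and for Chrm3 0.01 and -0.01. The largest in size was that of Chrm5 at 3 h, -0.124 (95% interval -0.309 to 0.061), where C366 was the lowest array. Without C366 it was -0.042, and without C369 it was -0.056.

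**Figure D3:**
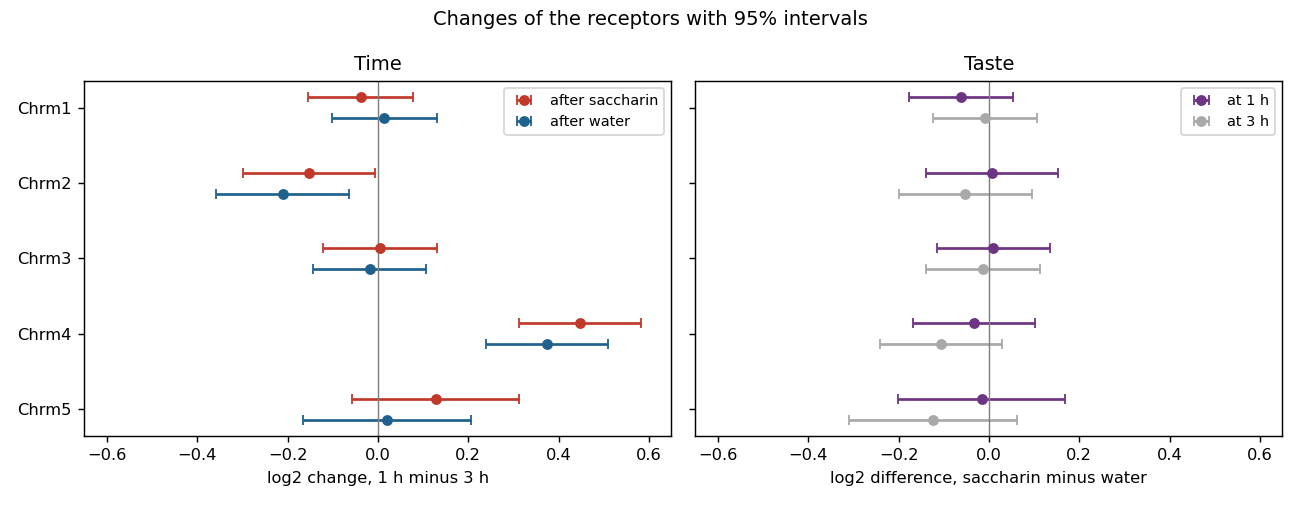
Log2 changes of the 5 receptors with 95% intervals (limma, 4 arrays per group): left, 1 h minus 3 h after saccharin (red) and water (blue); right, saccharin minus water at 1 h (purple) and 3 h (grey). Both Chrm4 time intervals lie above 0 (0.312 to 0.582 and 0.238 to 0.508), both Chrm2 time intervals below it, and every taste interval includes 0.

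Whether the change over time differed with the taste was tested as an interaction. For Chrm4 the change after saccharin exceeded that after water by 0.0736 (SE 0.0907, 95% interval -0.117 to 0.265, adjusted p = 1.00). For Chrm2 the difference of changes was 0.06 (95% interval -0.148 to 0.266) and for Chrm5 0.108 (95% interval -0.153 to 0.370). The interaction was called for 0 of 5 receptors and for 0% of all probe sets (450 with an unadjusted p under 0.05, 2.96%). A p that misses the threshold does not show that the changes were alike in both tastes.

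The genes on which these receptors act were taken as lists. In the Gq arm (Gq class subunits, phospholipase C beta, inositol trisphosphate receptors, protein kinase C and M-current channels), 0 of 18 measured genes were called over both tastes. The median log2 change was 0.0043 and 11 of 18 were positive. The smallest p values belonged to Gna14, a Gq class alpha subunit, at -0.17 (adjusted p = 0.170), and Rgs4, which speeds the inactivation of Gi and Gq, at 0.10 (adjusted p = 0.187). Rgs2, a regulator that prefers Gq, was at 0.09 (adjusted p = 0.400) and Kcnq5, an M-current channel subunit, at 0.07 (adjusted p = 0.592). Gna14 had group means below the median of every array.

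In the Gi and Go arm through which M2 and M4 act, 0 of 20 measured genes were called, with a median log2 change of -0.02 and 8 of 20 positive. Rgs14, a regulator of Gi, was at -0.13 (adjusted p = 0.198) and Rgs7, a regulator of Go, at 0.11 (adjusted p = 0.269). Kcnj3, a subunit of the inwardly rectifying potassium channel opened by Gi coupled receptors, was at 0.12 (adjusted p = 0.314), and Adcy8, a calcium-stimulated adenylyl cyclase, at 0.11 (adjusted p = 0.373). The genes of receptor desensitization gave 0 of 7 called and a median of -0.04. Among them were the receptor kinases Grk3 at -0.10 (adjusted p = 0.373), Grk5 at -0.09 (adjusted p = 0.539) and Grk6 at -0.04 (adjusted p = 0.718), and beta-arrestin 2, Arrb2, at -0.07 (adjusted p = 0.433).

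On the side of the transmitter, a list of genes of choline handling and of acetylcholine synthesis, release and breakdown was read. Of 8 measured genes, 0 were called, with a median of 0.05 and 5 of 8 positive. The tissue was cortex, and the basal forebrain neurons whose axons release acetylcholine there were not sampled. Choline kinase, Chka, was at 0.10 (adjusted p = 0.330), and Prima1, the membrane anchor of acetylcholinesterase, at 0.12 (adjusted p = 0.417). Colq, the collagen tail of the same enzyme, was at -0.09 (adjusted p = 0.614), and the choline transporter Slc44a1 at 0.05 (adjusted p = 0.692). The group means of Prima1 and Colq lay below the median of every array. Chat had no probe set of its own in the annotation used. Of the nicotinic receptors, the ion channel receptors for the same transmitter, and their partners, 0 of 18 were called, with a median of -0.0014. The subunits Chrna3 and Chrna9 were both at -0.13 (adjusted p = 0.226 and 0.267), the chaperone Ric3 at -0.10 (adjusted p = 0.295) and the subunit Chrnb3 at 0.13 (adjusted p = 0.508). Chrna9 and Chrnb3 also had group means below the median of every array. None of these 5 lists held a called gene in any of the 6 comparisons, against 1.01% of all probe sets over both tastes.

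**Figure D4:**
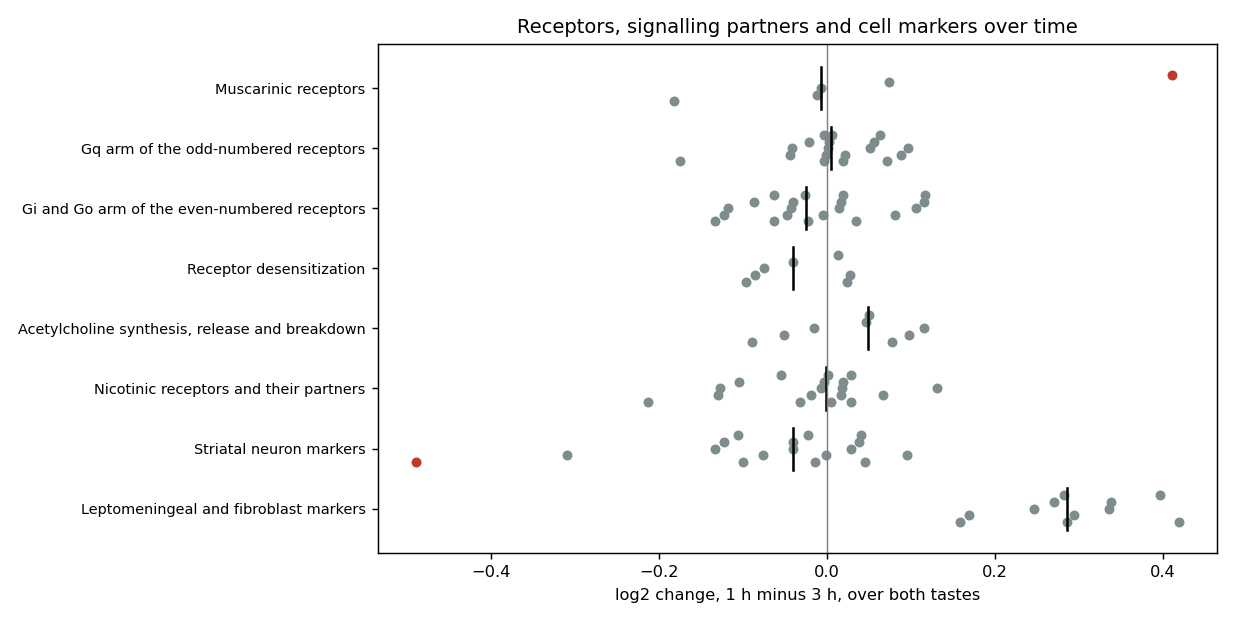
Log2 change, 1 h minus 3 h over both tastes (horizontal axis), of every measured gene in the receptor, pathway and marker lists (rows); each dot is a gene, red dots passed the adjusted threshold, and vertical lines are list medians. In the first 6 rows Chrm4, at 0.410, is the 1 red dot, and the pathway dots lie between -0.213 and 0.130.

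Because M4 is most abundant in striatum, which lies near the gustatory cortex, striatal markers were set beside the Chrm4 result. Of 17 measured markers, 1 was called over both tastes: Pde10a, a phosphodiesterase of striatal projection neurons, was lower at 1 h by a log2 change of -0.49 (adjusted p = 1.64e-05). The list had a median of -0.04 with 5 of 17 positive. Other defining markers gave -0.11 for Drd1 (adjusted p = 0.583), -0.31 for Drd2 (adjusted p = 0.0539), 0.04 for Adora2a (adjusted p = 0.845), -0.10 for Ppp1r1b (adjusted p = 0.315), -0.08 for Penk (adjusted p = 0.625) and 0.04 for Tac1 (adjusted p = 0.941). Drd2 and Adora2a had group means below the median of every array. The mean signal of the list was 5.78 at 1 h and 5.85 at 3 h after saccharin, and 5.78 and 5.85 after water. With Pde10a left out it was 5.69 and 5.74 after saccharin, and 5.69 and 5.73 after water.

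With the striatal mean as a covariate, the log2 change of Chrm4 was 0.344 after saccharin (adjusted p = 0.0825), 0.288 after water (adjusted p = 0.209) and 0.316 over both tastes (adjusted p = 0.0185). The slope of Chrm4 on that mean was -1.33 (SE 0.531, adjusted p = 0.787). With Pde10a left out of the mean, an alternative added after the values had been seen, the change was 0.380 (adjusted p = 0.0143), 0.326 (adjusted p = 0.0441) and 0.353 (adjusted p = 9.13e-04). The positive direction was kept in each of these fits. Whether striatal tissue contributed to the Chrm4 change was not tested.

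Leptomeningeal and fibroblast markers were set beside the Chrm4 result in the same way. Of 11 measured genes, 0 were called over both tastes, although all 11 log2 changes were positive, with a median of 0.286. The 2 with the smallest p values were Col1a1, a collagen chain, at 0.34 (adjusted p = 0.0617), and Igf2, a growth factor made in the leptomeninges, at 0.29 (adjusted p = 0.107). The mean of the list was 7.02 (array range 6.88 to 7.18) at 1 h and 6.65 (6.28 to 6.97) at 3 h after saccharin, and 6.94 (6.80 to 7.13) and 6.73 (6.53 to 6.94) after water. With this mean as a covariate Chrm4 changed by 0.488 after saccharin (adjusted p = 0.0157), 0.397 after water (adjusted p = 0.0385) and 0.442 over both tastes (adjusted p = 0.00151). Without the covariate the changes were 0.447, 0.373 and 0.410. Whether leptomeningeal tissue contributed to the Chrm4 change was not tested.

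The remaining cell type lists held no called gene. Over both tastes the 2 genes of smallest p in each were Neurod6 (-0.13) and Neurod2 (0.12) for cortical excitatory neurons, Vip (0.13) and Chodl (0.11) for inhibitory neurons, and Ngfr (0.06) and Slc18a3 (0.05) for basal forebrain cholinergic neurons. For non-neuronal cells they were Aldh1l1 (-0.09) and Aqp4 (-0.05) for astrocytes, Mobp (-0.08) and Cldn11 (-0.05) for oligodendrocytes, Cx3cr1 (-0.13) and C1qa (-0.21) for microglia, and Tek (-0.15) and Pecam1 (-0.09) for endothelium. Their adjusted p values ran from 0.126 for Cx3cr1 to 0.819 for Cldn11. Chodl and Slc18a3 had group means below the median of every array. The reference genes Gapdh and Actb changed by -0.02 and 0.00.

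The immediate early genes, which neurons switch on within minutes of activity, had the largest median change of the lists, 0.567. Of 11 measured, 6 were called higher at 1 h over both tastes: Fos (1.18), Junb (1.14), Nr4a1 (1.72), Arc (1.51), Ier2 (0.57) and Dusp1 (1.52), with adjusted p values from 5.21e-07 for Dusp1 to 3.07e-05 for Ier2. The members not called were Egr2 (0.50), Npas4 (0.32), Nr4a3 (0.26), Egr1 (0.25) and Egr4 (0.07). The change of Chrm4, 0.410, was smaller than that of the 6 called genes and of Egr2, and larger than that of the other uncalled members. Of all probe sets, 1.01% were called in this comparison. All of these changes share their arrays with Chrm4.

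Likeness to each receptor was taken as the Pearson correlation over the 16 arrays after the group means had been subtracted, so that the difference between times did not enter. For Chrm4 the closest probe sets were those of Per1 (0.908), a clock gene that is also induced by activity, Kif1c (0.894), a kinesin motor, Piga (0.864), an enzyme of glycolipid anchor synthesis, Egr1 (0.859), an activity-regulated transcription factor, and Vangl1 (0.826), a planar polarity protein. In the plain values, which hold the difference between times, Per1 was again first (0.976), followed by Sik1 (0.946), Arc (0.944), Csrnp1 (0.942) and Plk3 (0.933). Per1 averaged 7.11 ± 0.0990 at 1 h and 6.28 ± 0.142 at 3 h after saccharin, and 7.01 ± 0.190 and 6.41 ± 0.243 after water (SD, n = 4 each). Its change over both tastes was 0.712 (adjusted p = 4.56e-05). Egr1 changed by 0.25 and was not called (adjusted p = 0.183). Nor were Kif1c, Piga and Vangl1 (adjusted p = 0.941, 0.973 and 0.693 in limma).

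**Figure D5:**
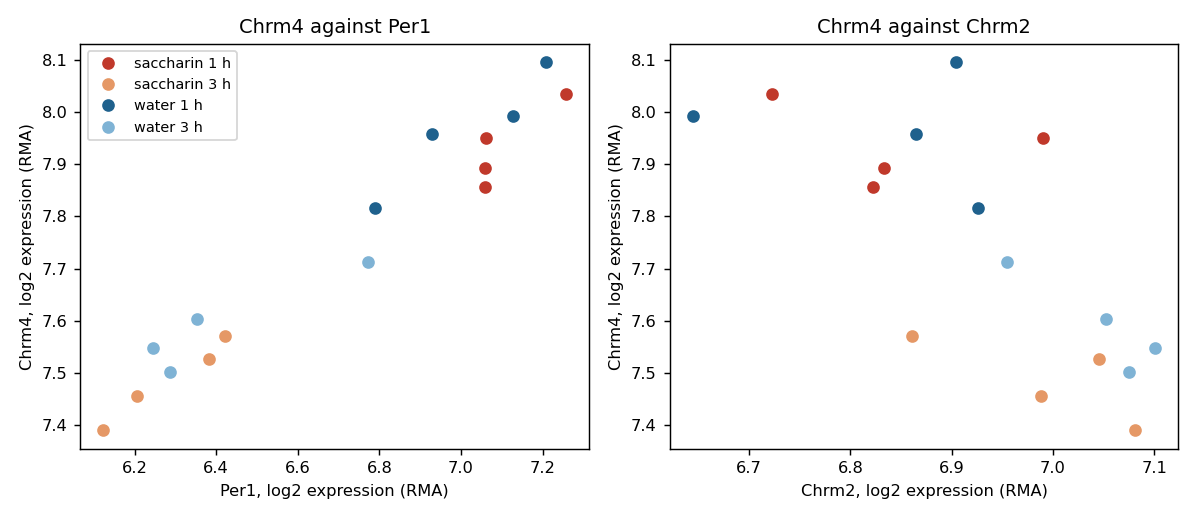
Log2 signal of Chrm4 against that of other genes, 1 point per array, coloured by group. Per1 rises with Chrm4 both between and within groups (plain correlation 0.976, and 0.908 with group means subtracted), and Chrm2 falls (-0.736 and -0.45).

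The other receptors had different closest probe sets. For Chrm1 they were Arf5 (0.924), a small GTPase of membrane traffic, Nudt14 (0.893) and Strada (0.868). For Chrm2 they were Peak1 (0.88), a probe set of Gapdh (0.841) and Snrpb2 (0.839). For Chrm3 they were Lat2 (0.909), Ly49i2 (0.882) and Thbd (0.859), and for Chrm5 Or5l13 (0.915), Zfand3 (0.818) and Spin2a (0.776). These are the highest of the correlations with all 15209 probe sets over 16 arrays and are descriptive. Mean log2 signals of Lat2 (3.93), Ly49i2 (2.28), Thbd (4.48), Or5l13 (2.63) and, for Chrm4, Vangl1 (4.90) lay below the median of every array. Between receptors, the largest within-group correlation was that of Chrm4 with Chrm5, 0.541 (0.488 in the plain values), and the 8 pairs other than this and Chrm2 with Chrm4 lay between -0.323 and 0.224.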

How the data were processed

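RNA from the gustatory cortex of 16 rats was hybridised to Affymetrix RaGene 1.1 ST arrays, 1 per rat. The authors processed the scanner files with the affy package, quantile normalised them across arrays and summarised probe sets by the robust multi-array average; the deposited values are log2 signals, and none of the sources used here names the package version. Quantile normalisation makes the arrays alike in distribution, so a change common to most genes would not be seen. Probe sets were named from the platform annotation: 15209 had 1 gene, 306 several and 13311 no entry.

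Groups of 4 arrays came from the labels. All 16 arrays entered 1 group-means fit in limma 3.58.1 (R 4.3.3), with Benjamini-Hochberg adjustment over the 15209 probe sets and a threshold of 0.05, checked on simulated data. The comparisons were 1 h against 3 h after saccharin, after water and over both, saccharin against water at 1 h and 3 h, and the interaction. Their precision is limited by the number of arrays. Where a gene had several probe sets, the one with the highest mean stood for it in a list. Exact permutation tests were two-sided. Alternatives varied the probe sets tested, the normalization, the prior, weights, covariates and arrays. The receptors, lists and motifs were chosen with earlier results of these data known. The text names every receptor and the called genes of each list (otherwise up to 4 of smallest p in pathway lists and 2 in cell type lists). It also names the other immediate early genes, further striatal markers, Slc17a7, Gapdh, Actb and the 5 (Chrm4) or 3 probe sets most like each receptor. Promoters were read from RefSeq (GRCr8), which matched 4 of the 5 receptors; Chrm5 was not matched.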

Additional observations from a re-analysis of the deposited data

How the results depend on the processing

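Chrm4 was higher at 1 h in every alternative, and 27 of the 30 receptor changes, all but the 3 time comparisons of Chrm4, were called neither in the reported fit nor in any alternative. Of 714 alternative values of these 27, 46 changed sign. The count of receptors called after saccharin, 1, became 0 with the striatal marker mean as a covariate, where Chrm4 changed by 0.344 (adjusted p = 0.0825). After water the count was 0, and Chrm4 not called, when all probe sets were tested (0.373, adjusted p = 0.0638), by least squares without moderation (0.373, adjusted p = 0.125), with the striatal covariate (0.288, adjusted p = 0.209) and with only the 8 arrays of the comparison (0.373, adjusted p = 0.147). Why the adjusted p was higher in these fits was not tested. With 1 array left out at a time the count ranged from 0 to 1 and the Chrm4 change after water from 0.330 to 0.423. Over both tastes Chrm4 was called in all alternatives (adjusted p from 6.41e-06 to 0.0185), and the adjusted p of Chrm2 ran from 0.0544 to 0.693. For 1 h against 3 h over both tastes, the comparison in which lists were recounted, the pathway lists held 0 called genes in all 26 settings, the striatal list 1 to 2, the leptomeningeal list 0 to 3 and the immediate early genes 6 to 9. Leaving out dim probe sets removed Chrm5. The fit to 8 arrays was not made for the interaction or for both tastes together, which need all 16. No paired analysis was possible because the labels give every array a number of its own, shared with no other group. Signal over background could not be judged, since the values carry no detection call.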

Other observations

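Genes next to the receptors in the GRCr8 annotation were also read. Of 18 neighbours with a probe set, 0 were called in any of the 6 limma comparisons. Mdk, a heparin-binding growth factor whose annotated span overlaps that of Chrm4, changed by 0.04 over both tastes (adjusted p = 0.895), and Dgkz, a diacylglycerol kinase beside it, by -0.08 (adjusted p = 0.306). Creb3l1, a membrane-bound transcription factor, was at 0.06 (adjusted p = 0.780), with group means below the median of every array. Aven, an apoptosis inhibitor whose span overlaps that of Chrm5, was at -0.04 (adjusted p = 0.826). The smallest adjusted p values among neighbours were those of Ptn, a growth factor beside Chrm2, at 0.11 (adjusted p = 0.0647), and Emc7, a membrane protein insertion factor beside Chrm5, at 0.14 (adjusted p = 0.0967). These neighbours were named after their values had been seen.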
